A study of Oryza sativa with 12 samples.

Results

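The drought response of idr1-1 rice was compared with the drought response of its wild type, locus by locus, in messenger RNA sequenced from leaves. The quantity followed throughout is the difference of responses: the log2 change from control to drought in idr1-1 less the same change in wild type. A value of 0 means that both genotypes changed by the same factor, a positive value that the response of idr1-1 was the higher, and a negative value that it was the lower. All 12 libraries of the series enter this comparison, and no library is left for another one. They form 4 groups of 3 biological replicates. Wild type control and wild type drought were plants of the cultivar IAPAR9 (Oryza sativa), and idr1-1 control and idr1-1 drought were plants of the mutant, which the labels list under the same cultivar. All plants were 5 weeks old, at the 5-leaf stage, and grew in concrete tanks. Drought plants were taken once soil moisture had dropped to 10%, and the control plants were not stressed. The labels name leaf as the tissue, while the extraction protocol speaks of seedlings. They describe 1 mutant allele and no complemented line, and they do not say whether a library held 1 plant or several.

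A heterotrimeric G protein is a membrane switch of an alpha, a beta and a gamma subunit that passes signals from hormones and the environment into the cell. By what is known of the study, idr1-1 carries its lesion in the gene of the alpha subunit, RGA1. Rice that lacks this subunit is dwarfed, responds weakly to brassinosteroid and has been linked to tolerance of several stresses. Under drought, leaves make abscisic acid, which closes stomata and switches on protective proteins, and growth processes such as the building of cell walls slow down.

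RGA1 (LOC_Os05g26890), the gene of the lesion, was at 28.9, 25.4 and 31.5 CPM in wild type control, 23.9, 26.9 and 25.1 CPM in wild type drought, 11.1, 12.5 and 12.01 CPM in idr1-1 control and 12.3, 14.1 and 11.1 CPM in idr1-1 drought, where CPM is the count of a locus scaled to the size of its library, with TMM factors. All 6 idr1-1 libraries were below all 6 wild type libraries, in both treatments. The genotypes did not differ in how RGA1 responded to drought by a test that passed: the difference of responses was 0.25 (SE 0.16, adjusted p = 0.48) with all 12 libraries, with a 95% interval from -0.09 to 0.59, and 0.32 (SE 0.15, adjusted p = 0.285) without idr1-1 drought replicate 3. RGB1 (LOC_Os03g46650), the beta subunit, had -0.05 (SE 0.13, adjusted p = 0.9) and -0.12 (SE 0.13, adjusted p = 0.654) respectively. Every value of RGA1 was a fraction and not a whole number before rounding, as happens when reads are shared between features.

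One library stood apart from its replicates. Total counts were 19100254 to 25109639 per library, and 27883 to 29135 loci had at least 1 count. Correlations of log2 CPM were 0.979 to 0.988 over the 10 pairs of replicates that did not involve idr1-1 drought replicate 3, 0.951 and 0.966 between that library and its own replicates, and 0.961 to 0.970 between it and the wild type drought libraries. With the same wild type drought libraries, idr1-1 drought replicate 1 had 0.968 to 0.972 and replicate 2 had 0.973 to 0.979. By this measure replicate 3 was thus not the closest of the 3 to wild type drought. Its TMM factor was 1.11 against 0.890 and 0.897 in replicates 1 and 2. Its quality weight in limma was 0.204, the next lowest of the 12 being 0.746. Nothing in the labels sets it apart, so calls, and the differences of the loci named, are given with it and without it, and fits without it leave idr1-1 drought with 2 libraries and the spread estimated over all groups.

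With all 12 libraries the difference of responses passed the test at 11 of 22833 loci, which is 0.0482% of those tested (edgeR's quasi-likelihood test, Benjamini-Hochberg adjusted p under 0.05). It was higher in idr1-1 at 3 loci (0.0131%) and lower at 8 (0.035%). The drought response within a genotype was called far more often, at 10032 loci (43.9%, 22.4% rising and 21.5% falling) in wild type and at 8129 (35.6%, 18% rising and 17.6% falling) in idr1-1. Without adjustment, 3540 loci had p under 0.05 in the difference of responses. DESeq2's Wald test called 708 of 22380 loci (3.16%) on the same 12 libraries and limma with voom and sample quality weights 371 (1.62%). In edgeR, a fit with the replicate number as a block called 0 loci and scaling by library size alone called 2, both of them among the 11. With idr1-1 drought replicate 3 left out, edgeR called 489 of 23197 loci (2.11%), of which 223 were higher (0.961%) and 266 lower (1.15%), and 4291 had an unadjusted p under 0.05. All 11 loci called with 12 libraries were among the 489, in the same direction.

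The choice of library moved the count in both directions. With 1 library left out in turn, the number of loci called was 0 without wild type control replicate 1 or 3, idr1-1 control replicate 1, wild type drought replicate 2 or idr1-1 drought replicate 1. It was 2 without idr1-1 control replicate 3 or wild type drought replicate 3, 7 without wild type drought replicate 1 and 14 without wild type control replicate 2. It was 241 without idr1-1 control replicate 2 and 582 without idr1-1 drought replicate 2, of which 490 were higher in idr1-1. The balance of directions among the called loci thus turned on which idr1-1 drought library was left out: 223 higher and 266 lower without replicate 3, and 490 higher and 92 lower without replicate 2. The plot of calls by setting shows these counts side by side.

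**Figure D1:**
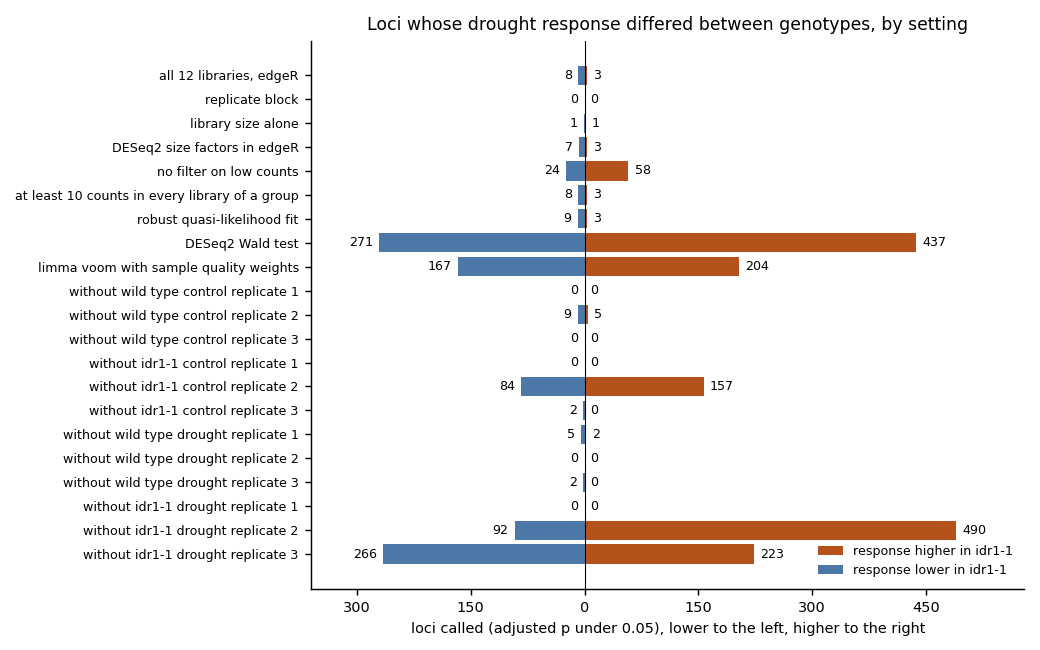
Number of loci whose drought response differed between the genotypes (x axis, loci called at adjusted p under 0.05; lower in idr1-1 to the left, higher to the right) under each setting (y axis). The edgeR test on all 12 libraries called 8 and 3, and most counts stayed near these or at 0, except with DESeq2, with voom weights, with no filter on low counts and without idr1-1 control replicate 2, idr1-1 drought replicate 2 or idr1-1 drought replicate 3.

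The 11 loci called with all libraries fall into 5 whose response was enlarged in idr1-1, with the same sign in both genotypes and a larger size in idr1-1, and 6 whose response was reversed, with opposite signs. None was damped, that is, of the same sign and smaller in idr1-1. At 2 of the 6 reversed loci both responses passed their own test. The wild type response alone passed at 2 and the idr1-1 response alone at 2, where the opposite sign rests on a response that did not pass. At 3 of the 5 enlarged loci the idr1-1 response alone passed, so the same sign rests on a wild type response that did not. The genotypes differed at 10 of the 11 in control alone and at 1 in both treatments, where the whole table had 2391 loci (10.5%) called between genotypes in control (5.54% higher and 4.93% lower in idr1-1) and 42 (0.184%) under drought. The difference of responses is the genotype gap under drought less that in control. Loci called in it were thus picked partly for such a gap, and an excess over all loci is partly built in. The files pair none of these 11 locus identifiers with a gene name, so they are given by identifier, whose first number is the chromosome.

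All 5 enlarged loci fell under drought in idr1-1 from a control level that was above wild type. LOC_Os03g62200 was at 33.9, 36.9 and 41.9 CPM in wild type control, 10.5, 12.3 and 10.98 CPM in wild type drought, 105, 64.7 and 92.2 CPM in idr1-1 control and 5.79, 7.001 and 7.30 CPM in idr1-1 drought. Its 3 idr1-1 control libraries were above all others and its 3 idr1-1 drought libraries below all others, with no overlap between any of the 4 groups. The fall was -1.74 on the log2 scale in wild type and -3.70 in idr1-1, a difference of -1.97 (SE 0.24, adjusted p = 0.0194), so that the factor of the fall was 3.91 times as large in idr1-1. LOC_Os10g39100 had the same shape at a lower level, with 6.68, 5.98 and 7.29 CPM in wild type control, 4.08, 4.92 and 5.01 CPM in wild type drought, 17.69, 11.99 and 15.3 CPM in idr1-1 control and 2.82, 2.72 and 2.37 CPM in idr1-1 drought. Here too the 4 groups did not overlap, and the difference was -2.00 (SE 0.23, adjusted p = 0.0194). Both responses were called at each of these loci.

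The other 3 enlarged loci had a wild type response near 0 and a response in idr1-1 alone. LOC_Os09g28650 was at 30.0, 32.3 and 27.2 CPM in wild type control, 28.2, 29.8 and 27.7 CPM in wild type drought, 47.7, 46.5 and 41.9 CPM in idr1-1 control and 20.5, 17.89 and 19.4 CPM in idr1-1 drought. The wild type groups overlapped each other, while idr1-1 lay above both in control and below both under drought, and this is the 1 locus of the 11 where the genotypes differed in both treatments. Its wild type response was -0.06 (adjusted p = 0.577), its idr1-1 response -1.23 and the difference -1.17 (SE 0.12, adjusted p = 0.0194). LOC_Os11g07930 was at 48.3, 52.8 and 53.3 CPM in wild type control, 48.3, 54.3 and 49.4 CPM in wild type drought, 77.0, 75.7 and 66.4 CPM in idr1-1 control and 36.0, 36.8 and 37.8 CPM in idr1-1 drought, again with idr1-1 above all wild type libraries in control and below them all under drought, and had a difference of -0.97 (SE 0.12, adjusted p = 0.0194). LOC_Os08g42910 was at 12.8, 11.6 and 13.0 CPM in wild type control, 12.4, 12.9 and 10.9 CPM in wild type drought, 20.4, 18.8 and 18.1 CPM in idr1-1 control and 8.66, 9.72 and 9.95 CPM in idr1-1 drought. It repeated the pattern, with no overlap between idr1-1 and wild type in either treatment and a difference of -0.97 (SE 0.14, adjusted p = 0.0434). For LOC_Os09g28650, 6 of the 12 values were not whole before rounding, as with shared reads.

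Of the 6 reversed loci, 3 had the lower response in idr1-1. LOC_Os09g26260 rose in wild type and fell in idr1-1, both by tests that passed. It was at 3.72, 4.95 and 3.38 CPM in wild type control, 5.66, 8.88 and 7.52 CPM in wild type drought, 12.4, 8.81 and 8.71 CPM in idr1-1 control and 3.51, 4.81 and 3.54 CPM in idr1-1 drought. The idr1-1 control libraries overlapped wild type drought, and the idr1-1 drought libraries overlapped wild type control. The responses were 0.87 and -1.33, and the difference was -2.20 (SE 0.32, adjusted p = 0.0409). LOC_Os10g39090 was at 3.32, 3.57 and 2.90 CPM in wild type control, 8.55, 8.45 and 8.88 CPM in wild type drought, 9.12, 5.78 and 7.65 CPM in idr1-1 control and 5.10, 6.13 and 5.47 CPM in idr1-1 drought. It rose in wild type with no overlap between treatments, and the idr1-1 groups overlapped, with a response of -0.44 there that did not pass (adjusted p = 0.0529). Its difference was -1.84 (SE 0.23, adjusted p = 0.0224). LOC_Os01g71690 was at 20.4, 22.3 and 21.0 CPM in wild type control, 25.1, 28.5 and 21.8 CPM in wild type drought, 46.3, 35.6 and 45.0 CPM in idr1-1 control and 18.9, 19.6 and 23.5 CPM in idr1-1 drought. The idr1-1 control libraries stood above all others and the other 3 groups overlapped, with a difference of -1.28 (SE 0.18, adjusted p = 0.0409). Its wild type response of 0.24 did not pass (adjusted p = 0.149), and its idr1-1 response was -1.03.

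The other 3 reversed loci had the higher response in idr1-1 and were low in idr1-1 control. LOC_Os05g32500 fell in wild type and rose in idr1-1, both by tests that passed. It was at 19.2, 15.8 and 17.39 CPM in wild type control, 13.4, 12.8 and 13.1 CPM in wild type drought, 9.73, 10.4 and 9.56 CPM in idr1-1 control and 14.5, 15.2 and 18.3 CPM in idr1-1 drought. Its idr1-1 control libraries were below all others, and its idr1-1 drought libraries were above wild type drought and overlapped wild type control at replicate 3. Responses of -0.41 and 0.69 gave a difference of 1.11 (SE 0.15, adjusted p = 0.0327). LOC_Os04g58910 was at 24.1, 21.5 and 24.9 CPM in wild type control, 20.8, 18.5 and 20.5 CPM in wild type drought, 11.5, 11.4 and 11.2 CPM in idr1-1 control and 17.86, 19.3 and 22.0 CPM in idr1-1 drought. Its idr1-1 control libraries were below all others and its idr1-1 drought libraries overlapped both wild type groups, and its difference was 1.04 (SE 0.14, adjusted p = 0.0303). Of its responses, that of idr1-1 alone passed its own test.

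LOC_Os02g38780 had the largest difference of the 11, 4.67 (SE 0.63, adjusted p = 0.0327), and rests on few reads outside wild type control. It was at 3.50, 5.47 and 3.57 CPM in wild type control, 0.213, 0.271 and 0.319 CPM in wild type drought, 0.140, 0.106 and 0.150 CPM in idr1-1 control and 0.297, 0.292 and 0.0896 CPM in idr1-1 drought. Wild type control was the 1 group with an appreciable level, holding 280 counts over its 3 libraries against 19 in wild type drought, 8 in idr1-1 control and 14 in idr1-1 drought. The fall of -3.94 in wild type was called. In idr1-1 the locus was at a trace level in both treatments and its response of 0.72 was not called (adjusted p = 0.366). A count of 3 in a single library corresponds to 0.119 to 0.157 CPM, so the idr1-1 values lay at or close to that floor, and counting error alone makes any direction within idr1-1 unclear. All 12 of its values were fractions before rounding.

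**Figure D2:**
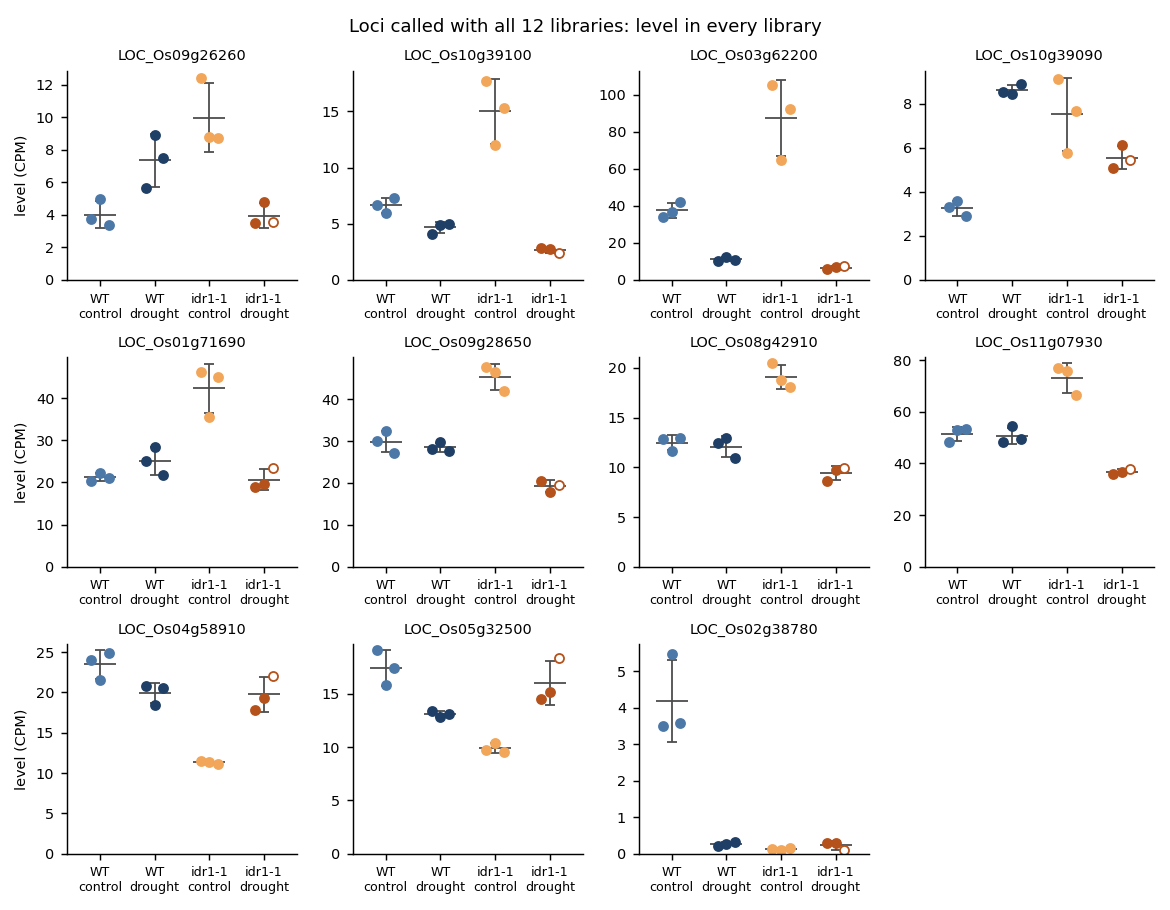
Level of the 11 loci called with all libraries (y axis, CPM from 0) in each library (points) by group (x axis), with group mean and SD; the open point is idr1-1 drought replicate 3. At 8 loci the idr1-1 control libraries were high and at 3 low, and the open point lay with or near its replicates, as at LOC_Os11g07930 with 36.0, 36.8 and 37.8 CPM.

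Leaving out the library that stood apart moved the difference of LOC_Os03g62200 from -1.97 to -2.04 and that of LOC_Os05g32500 from 1.11 to 0.99. The other 4 enlarged loci had -1.94 at LOC_Os10g39100, -1.18 at LOC_Os09g28650, -0.99 at LOC_Os11g07930 and -1.02 at LOC_Os08g42910 without it. The other 5 reversed loci had -2.14 at LOC_Os09g26260, -1.83 at LOC_Os10g39090, -1.39 at LOC_Os01g71690, 0.94 at LOC_Os04g58910 and 5.05 at LOC_Os02g38780. With 1 of the 12 libraries left out at a time, all 11 kept their direction, LOC_Os09g28650 ranging from -1.23 to -1.12 and LOC_Os02g38780 from 4.42 to 5.05. Their calls were less steady: all 11 were called without idr1-1 control replicate 2, idr1-1 drought replicate 2 or idr1-1 drought replicate 3, 9 without wild type control replicate 2, 5 without wild type drought replicate 1, 2 without idr1-1 control replicate 3, 1 without wild type drought replicate 3 and 0 in the other 5 cases.

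Without idr1-1 drought replicate 3 the 489 loci comprised 167 damped, 114 enlarged and 208 reversed ones. The damped loci had a median response of 1.94 in size (log2) in wild type and 0.56 in idr1-1. Both responses were called at 104 of them and the wild type response alone at 63, the whole table having 11765 called responses (50.7%) in wild type and 8590 (37%) in idr1-1. In wild type, 86 of the damped loci rose under drought and 81 fell, as 25.7% and 25% of all loci did. Enlarged loci were the mirror of this, with median sizes of 0.53 in wild type and 2.21 in idr1-1, both responses called at 61 and the idr1-1 response alone at 53. They rose in idr1-1 at 52 loci and fell at 62, beside 4275 rising and 4315 falling among all called idr1-1 responses. For the reversed loci the median sizes were 0.67 in both genotypes, and opposite responses that each passed the test were found at 65, of which 42 rose in wild type and fell in idr1-1 and 23 did the opposite. These classes are defined by the fitted signs and sizes and have no test of their own. Which genotype has the larger median among damped and enlarged loci is therefore set by the definition. It also favours calls in the genotype with the larger response.

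Which arm differed varied with the class. Between genotypes, 4557 loci (19.6%) were called in control and 1074 (4.63%) under drought without that library. Among the 489 loci, 304 had a genotype difference in control alone, 120 under drought alone, 51 in both and 14 in neither. Damped loci were divided between control alone (77) and drought alone (65), whereas 84 of 114 enlarged and 143 of 208 reversed loci were called in control alone. In control, idr1-1 was the higher at 195 of the 489 and the lower at 160, by the control test, beside 10.4% and 9.26% of all loci. The 489 too were picked partly for a genotype gap, so an excess over all loci is partly built in.

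The library left out was itself measured at these loci. Its level was nearer to the wild type drought mean than to the mean of its own replicates at 343 of the 489 loci (70.1%, log2 of CPM plus 0.5). The share was 64.1% of the 304 loci called between genotypes in control alone and 78.3% of the 120 called under drought alone. The 489 were called from fits that leave the library out, so these shares describe loci that were picked partly for a distance between its replicates and wild type. The same share over all loci tested was not counted, so the 70.1% has no background beside it.

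**Figure D3:**
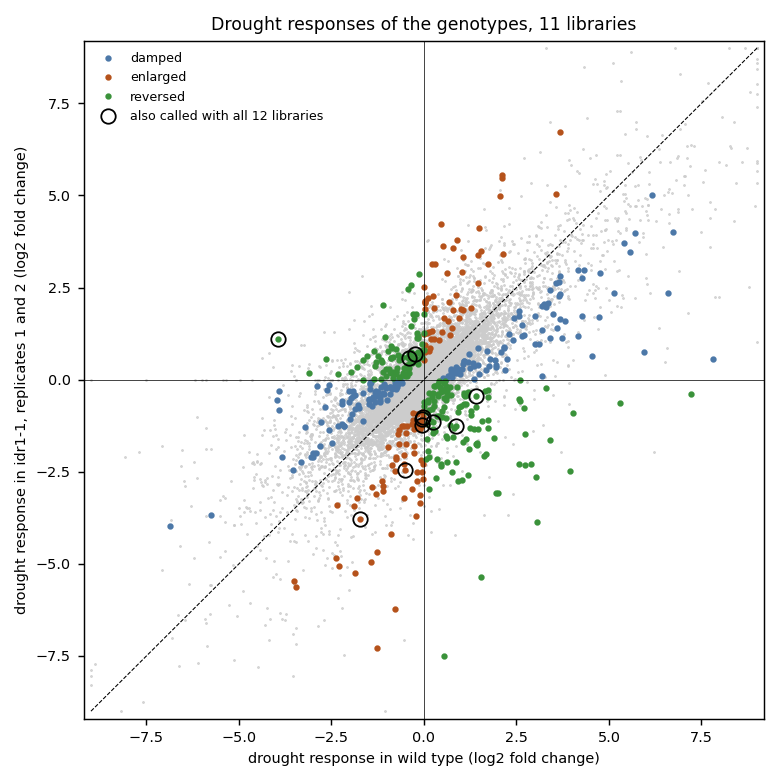
Drought response (log2 fold change) of each of the 23197 loci in wild type (x axis) and in idr1-1 from drought replicates 1 and 2 (y axis); the dashed diagonal marks equal responses, and points beyond 9 in either direction are drawn at the edge. Called loci are coloured as 167 damped, 114 enlarged and 208 reversed, and the 11 also called with all 12 libraries are ringed.

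Named genes come from 29 lists of loci that were assigned to genes from the literature, and each was used only where the gene table held its name on the chromosome of its locus identifier. Of 271 members, 216 could be used. With all 12 libraries, 0 of the 202 tested members were called in the difference of responses (edgeR), where 40 had an unadjusted p under 0.05, DESeq2 called 13 and voom with quality weights called 8. Over all loci, 3540 of 22833 had such a p, DESeq2 called 3.16% and voom 1.62%. Without idr1-1 drought replicate 3, 12 of 204 tested members were called, 10 higher and 2 lower in idr1-1, and 62 had an unadjusted p under 0.05. Over all loci in that fit the share called was 2.11%, and 4291 of 23197 had an unadjusted p under 0.05.

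The cellulose synthases made up the largest group among the 12 called members. These enzymes of the plasma membrane spin the cellulose of cell walls, CESA4, CESA7 and CESA9 that of the thickened secondary walls of vessels and fibres, and CESA1, CESA2, CESA3, CESA5, CESA6 and CESA8 that of the primary walls of growing cells. CESA4 (LOC_Os01g54620) was at 12.8, 9.77 and 14.8 CPM in wild type control, 12.7, 8.06 and 8.79 CPM in wild type drought, 1.92, 5.20 and 1.40 CPM in idr1-1 control and 20.8, 12.5 and 17.1 CPM in idr1-1 drought. CESA7 (LOC_Os10g32980) was at 10.4, 9.13 and 11.98 CPM in wild type control, 15.6, 8.57 and 12.2 CPM in wild type drought, 1.45, 5.31 and 1.05 CPM in idr1-1 control and 26.71, 19.01 and 22.3 CPM in idr1-1 drought. CESA9 (LOC_Os09g25490) was at 9.69, 7.71 and 11.3 CPM in wild type control, 15.2, 9.69 and 10.5 CPM in wild type drought, 1.26, 4.35 and 1.35 CPM in idr1-1 control and 25.3, 15.3 and 20.8 CPM in idr1-1 drought. For all 3 genes the idr1-1 control libraries were below every other library, replicate 2 being the highest of them, while wild type control and wild type drought overlapped.

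The 3 genes rose under drought in idr1-1, and their wild type responses did not pass the test. Without idr1-1 drought replicate 3 the idr1-1 responses were 2.56, 3.15 and 3.14 for CESA4, CESA7 and CESA9, each called, against -0.34, 0.21 and 0.30 in wild type, none called. The difference of responses was 2.90 (SE 0.55, adjusted p = 0.0303) for CESA4, 2.94 (SE 0.60, adjusted p = 0.0366) for CESA7 and 2.84 (SE 0.55, adjusted p = 0.0314) for CESA9. With all 12 libraries the sizes were nearly the same and the calls were lost: 2.92 (SE 0.53, adjusted p = 0.0692) for CESA4, 2.93 (SE 0.59, adjusted p = 0.0806) for CESA7 and 2.85 (SE 0.53, adjusted p = 0.0702) for CESA9. Over 20 other settings the adjusted p of CESA4 ranged from 0.000131 to 0.199, and it was called in 6 of 20. The genotypes differed in control, with CESA4 lower in idr1-1 by a log2 value of -2.15, and under drought its gap of 0.75 was not called (adjusted p = 0.267).

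BC1 (LOC_Os03g30250), which shapes secondary wall cellulose and is needed for stem strength, was the 4th tested member of the secondary wall list. It was at 2.79, 2.71 and 2.99 CPM in wild type control, 2.89, 3.10 and 2.69 CPM in wild type drought, 0.749, 1.91 and 0.801 CPM in idr1-1 control and 4.95, 3.01 and 3.99 CPM in idr1-1 drought, again with idr1-1 control below all other libraries. Its difference of 1.76 (SE 0.45, adjusted p = 0.0701) was not called without idr1-1 drought replicate 3, nor was 1.76 (SE 0.43, adjusted p = 0.11) with all libraries. The median difference of the 4 members was 2.87, beside -0.018 over all loci tested, and 3 were called, where 2.11% of all loci were. This list was planned with 8 members. Its regulators SWN1, SWN2, MYB46 and MYB61 were not used, because the gene table did not hold their names.

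Primary wall synthases were also low in idr1-1 control. CESA6 (LOC_Os07g14850) was at 30.9, 22.1 and 30.1 CPM in wild type control, 31.5, 29.3 and 30.7 CPM in wild type drought, 13.3, 14.2 and 9.81 CPM in idr1-1 control and 31.1, 29.9 and 33.5 CPM in idr1-1 drought. Its idr1-1 control libraries were below the rest, and its other 3 groups overlapped. CESA5 (LOC_Os03g62090) was at 29.5, 17.6 and 24.97 CPM in wild type control, 11.8, 10.7 and 9.70 CPM in wild type drought, 9.59, 12.1 and 6.55 CPM in idr1-1 control and 15.4, 12.2 and 20.4 CPM in idr1-1 drought. It fell in wild type and was higher under drought than in control in idr1-1, so that wild type drought and idr1-1 control overlapped at the bottom. The difference of responses was 1.15 (SE 0.22, adjusted p = 0.0301) for CESA6 and 1.70 (SE 0.33, adjusted p = 0.0329) for CESA5 without idr1-1 drought replicate 3, and 1.20 (SE 0.21, adjusted p = 0.0692) and 1.93 (SE 0.35, adjusted p = 0.0692) with it. The other 4 members were above 0 and not called: 1.46 (SE 0.36, adjusted p = 0.0638) for CESA1, 0.54 (SE 0.25, adjusted p = 0.28) for CESA2, 1.37 (SE 0.39, adjusted p = 0.0977) for CESA3 and 1.47 (SE 0.37, adjusted p = 0.0674) for CESA8. With all libraries these were 1.64, 1.00, 1.82 and 1.67. The median of the 6 was 1.42 without idr1-1 drought replicate 3 and 1.65 with it. In control 6 of the 6 were called lower in idr1-1, as 9.26% of all loci were, and under drought 0 were. The mean level of idr1-1 drought was above that of wild type drought for all 6 with replicate 3. Without replicate 3 it was 72.1 against 74.2 CPM for CESA1, 16.6 against 17.92 for CESA2, 81.9 against 91.0 for CESA3, 77.5 against 80.6 for CESA8 and 30.5 against 30.5 for CESA6. Among the 6, CESA5 alone then stayed above wild type.

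**Figure D4:**
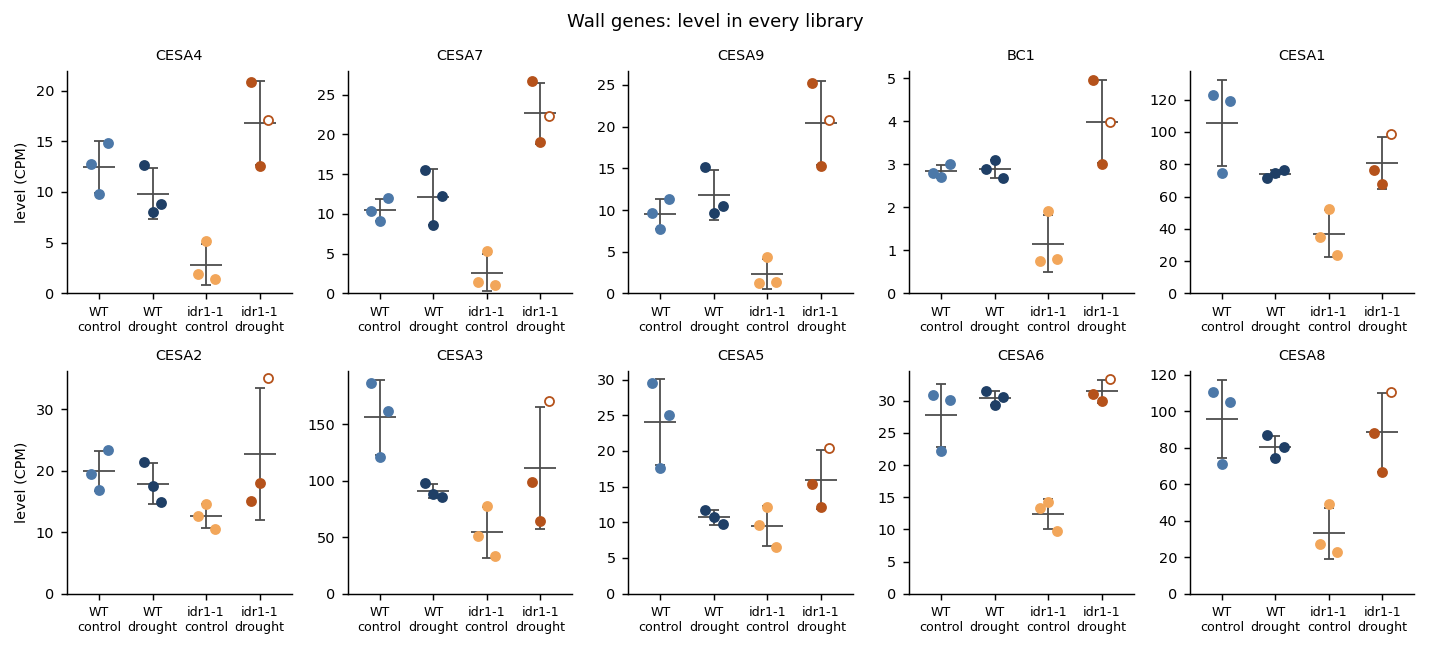
Level of the 10 tested wall genes (y axis, CPM from 0) in each library (points) by group (x axis), with group mean and SD; the open point is idr1-1 drought replicate 3. The idr1-1 control group is the lowest mean in every panel, as for CESA4 at 1.92, 5.20 and 1.40 CPM, and under drought the idr1-1 mean drawn, which includes the open point, is above the wild type mean in every panel. Without the open point this no longer holds for CESA1, CESA2, CESA3, CESA6 and CESA8.

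The size of these differences depended on idr1-1 control replicate 2, where the secondary wall genes were highest within their group. Without it, on the remaining 11 libraries, the difference was 3.67 (adjusted p = 0.00755) for CESA4, 3.96 (adjusted p = 0.00456) for CESA7 and 3.66 (adjusted p = 0.00755) for CESA9. Fewer cells of a type and less RNA per cell cannot be told apart in whole leaf tissue, and the secondary wall genes are themselves markers of vessels and fibres. The summed level of the 4 secondary wall genes was 29.3 to 41.1 CPM in wild type control, 29.4 to 46.3 in wild type drought, 4.60 to 16.8 in idr1-1 control and 49.8 to 77.8 in idr1-1 drought. Markers of dividing cells (PCNA, MCM2 and MCM5) summed to 12.04 to 16.5 CPM over all groups, most of it PCNA. In control PCNA held 815 counts in wild type and 835 in idr1-1, MCM2 147 and 90, and MCM5 36 and 8. In the difference 0 were called, of 2 tested with all 12 libraries and 3 without idr1-1 drought replicate 3. In the latter edgeR fit MCM5 was lower in idr1-1 control by a log2 value of -2.00 (adjusted p = 0.0283). The 7 markers of shoot apex, inflorescence and root summed to 21.4 to 24.3 CPM in idr1-1 control, 16.5 to 23.1 in wild type control, 7.27 to 10.0 in wild type drought and 4.26 to 18.5 in idr1-1 drought, and 3 or 4 of the 7 had 0 counts in each group, OSH15 and LSI2 among them. Most of each sum was the root marker LSI1, at 18.5, 13.2 and 3.94 CPM in idr1-1 drought. The shoot apex marker OSH1 held 1 count in idr1-1 drought and 0 in the other groups. The part of these markers in the wall result was not tested.

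Growth hormone, transport and nitrogen genes contributed single members, each called only in the fit without idr1-1 drought replicate 3, where 2.11% of all loci were called. CYP90B2 (LOC_Os03g12660), an early enzyme of brassinosteroid synthesis, was at 57.4, 56.5 and 67.3 CPM in wild type control, 11.7, 12.6 and 23.7 CPM in wild type drought, 44.5, 63.3 and 57.0 CPM in idr1-1 control and 40.7, 39.6 and 10.8 CPM in idr1-1 drought. It fell in wild type by a called log2 value of -1.92 and had an idr1-1 response of -0.46 that was not called, while replicate 3 lay below the wild type libraries. The difference was 1.46 (SE 0.33, adjusted p = 0.0457) without that replicate and 1.06 (SE 0.57, adjusted p = 0.402) with it, and 1 of 9 brassinosteroid genes was called. TIP1-1 (LOC_Os03g05290), a water channel of the vacuole membrane, was at 406, 433 and 411 CPM in wild type control, 436, 381 and 428 CPM in wild type drought, 320.5, 305 and 301 CPM in idr1-1 control and 584, 503 and 290.0 CPM in idr1-1 drought. The wild type response of -0.01 was not called, idr1-1 replicates 1 and 2 were above all other libraries, and replicate 3 was below all of its group's control libraries. The difference was 0.82 (SE 0.13, adjusted p = 0.0198) without it and 0.58 (SE 0.28, adjusted p = 0.351) with it, and 1 of 14 aquaporins was called. NIA1 (LOC_Os08g36480), a nitrate reductase, was at 462, 506 and 319.6 CPM in wild type control, 231, 226 and 268 CPM in wild type drought, 349, 328 and 401 CPM in idr1-1 control and 424, 404 and 179.9 CPM in idr1-1 drought, with replicate 3 again below wild type drought and replicates 1 and 2 above it. Its difference was 1.02 (SE 0.22, adjusted p = 0.0426) without replicate 3 and 0.73 (SE 0.39, adjusted p = 0.397) with it, 1 of 5 nitrogen assimilation genes was called, and 11 of its 12 values were not whole before rounding.

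Stress signalling and protection genes gave 2 damped falls and 2 damped rises in the fit without idr1-1 drought replicate 3, which called 2.11% of all loci. SAPK7 (LOC_Os04g35240), a kinase of the SnRK2 family that acts in abscisic acid and osmotic stress signalling, was at 34.3, 37.5 and 37.6 CPM in wild type control, 7.74, 7.44 and 9.20 CPM in wild type drought, 22.1, 24.7 and 20.3 CPM in idr1-1 control and 10.6, 8.12 and 11.1 CPM in idr1-1 drought. It fell in both genotypes from a control level that was lower in idr1-1, and the drought groups overlapped. The difference was 0.90 (SE 0.18, adjusted p = 0.0347) without idr1-1 drought replicate 3 and 1.00 (SE 0.18, adjusted p = 0.0692) with it, 1 of 10 SnRK2 genes being called. KSL6 (LOC_Os02g36264), a diterpene synthase, was at 26.4, 23.5 and 27.2 CPM in wild type control, 3.53, 2.36 and 3.78 CPM in wild type drought, 13.9, 13.2 and 13.0 CPM in idr1-1 control and 3.26, 3.50 and 2.11 CPM in idr1-1 drought, a steeper fall in wild type from a control level that was above that of idr1-1 in every library. Its difference was 1.01 (SE 0.22, adjusted p = 0.0443) and 0.82 (SE 0.27, adjusted p = 0.187) respectively, and 1 of 14 phytoalexin genes was called.

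P5CS2 (LOC_Os01g62900), an enzyme of proline synthesis, was at 9.47, 6.89 and 6.66 CPM in wild type control, 28.7, 36.2 and 32.5 CPM in wild type drought, 7.44, 8.44 and 7.60 CPM in idr1-1 control and 9.60, 17.0 and 33.6 CPM in idr1-1 drought. The control groups overlapped, idr1-1 drought replicates 1 and 2 were below wild type drought, and replicate 3 was among the wild type libraries. The difference was -1.32 (SE 0.29, adjusted p = 0.0457) without replicate 3 and -0.72 (SE 0.48, adjusted p = 0.513) with it, with 1 of 5 solute pathway genes called. HSP17.9A (LOC_Os03g15960), a small heat shock protein, was at 17.0, 21.0 and 17.8 CPM in wild type control, 99.5, 98.4 and 103 CPM in wild type drought, 27.3, 24.9 and 27.4 CPM in idr1-1 control and 78.2, 90.9 and 140.3 CPM in idr1-1 drought. Here idr1-1 was above wild type in control and, in replicates 1 and 2, below it under drought. The difference was -0.77 (SE 0.13, adjusted p = 0.0253) and -0.47 (SE 0.25, adjusted p = 0.397) respectively, and 1 of 9 heat shock genes was called.

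In each of CYP90B2, TIP1-1, NIA1, P5CS2 and HSP17.9A the call rests on leaving 1 library out, and over the 20 other settings each was called in that 1 only. KSL6 was the same, while SAPK7 was called in 6 of 20.

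**Figure D5:**
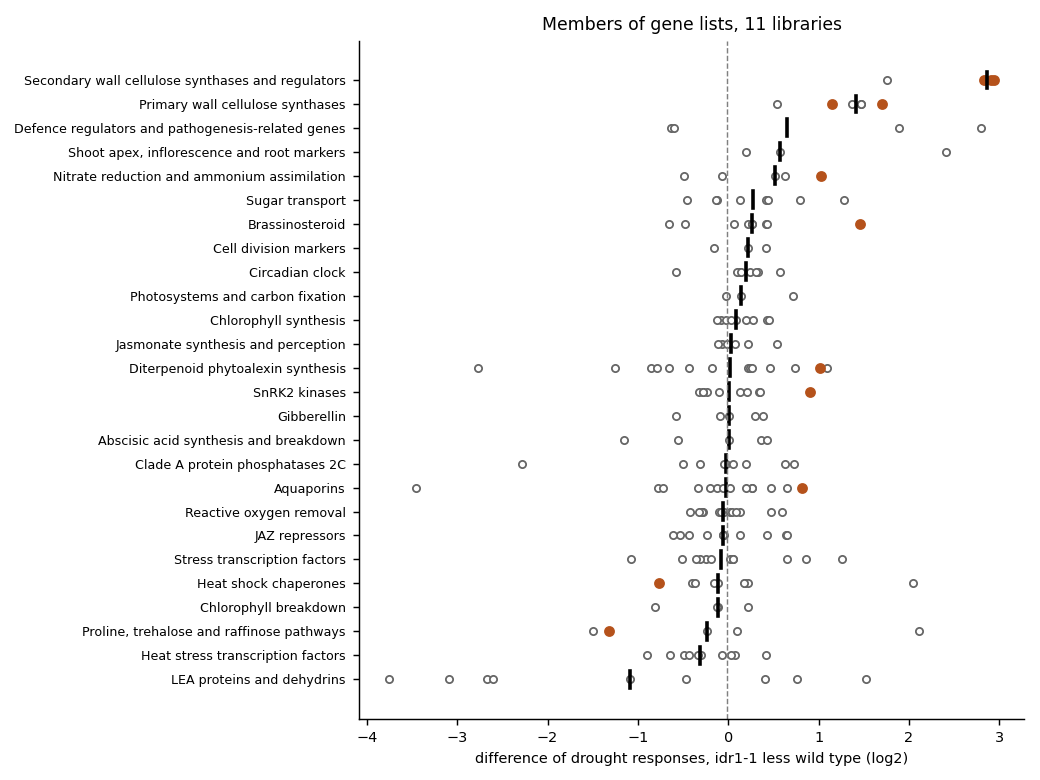
Difference of drought responses (x axis, log2, idr1-1 less wild type, without idr1-1 drought replicate 3) of each tested member (points) of the lists with at least 3 tested members (y axis); filled points are the 12 called members, bars the list medians and the dashed line the median of all loci (-0.018). The secondary wall (2.87) and primary wall (1.42) medians lie furthest to the right and the LEA proteins and dehydrins (-1.09, and -0.34 with all 12 libraries) furthest to the left, with 0 members called.

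LEA proteins and dehydrins, which protect cell contents as water is lost, rose under drought at 8 of 9 members in wild type and at 8 of 9 in idr1-1, where 22.4% and 18% of all loci rose, and 0 of 9 were called in the difference with or without idr1-1 drought replicate 3. Their median difference was -0.34 with all 12 libraries, 4 members being above 0 and 5 below, and -1.09 without replicate 3, with 3 above and 6 below. RAB16A (LOC_Os11g26790), a dehydrin, was at 0, 0.0430 and 0 CPM in wild type control, 937, 723 and 991 CPM in wild type drought, 0.0468, 0 and 0.05003 CPM in idr1-1 control and 233, 289.5 and 608 CPM in idr1-1 drought. Under drought the idr1-1 libraries were all below the wild type ones, and in control the gene held 1 count in all of wild type and 2 in all of idr1-1, so that the difference of -2.14 has a 95% interval from -7.49 to 3.21. It was -2.67 (SE 1.61, adjusted p = 0.407) without replicate 3. Depth in control thus limits what can be said of its response. The gap under drought was -1.23 (adjusted p = 0.123) with all libraries and -1.77 (adjusted p = 0.000557) without replicate 3. Under drought 0 of the 9 LEA members were called lower in idr1-1 with all libraries, beside 0.14% of all loci, and 6 of the 9 without replicate 3, beside 2.44%. NCED3 (LOC_Os03g44380), which makes the rate-limiting enzyme of abscisic acid synthesis, was at 3.76, 5.85 and 3.28 CPM in wild type control, 80.9, 59.7 and 39.0 CPM in wild type drought, 4.73, 3.77 and 5.40 CPM in idr1-1 control and 23.0, 35.1 and 34.9 CPM in idr1-1 drought. All idr1-1 drought libraries were below all wild type drought libraries, and the difference of -1.05 (SE 0.41, adjusted p = 0.259) had a 95% interval, not adjusted for the number of loci, from -1.96 to -0.14. Without replicate 3 it was -1.16 (SE 0.44, adjusted p = 0.189). NCED3 had the lowest value of the 5 tested abscisic acid genes in both fits. Their median was -0.22 with all 12 libraries, 1 being above 0 and 4 below. It was 0.005 without replicate 3, with 3 above and 2 below.

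Other lists had 0 members called in the difference in either fit. They were the abscisic acid (5 tested), phosphatase 2C (9), stress transcription factor (12), reactive oxygen (14), photosystem and carbon fixation (3), chlorophyll synthesis (9) and breakdown (4), defence (4), jasmonate (6), JAZ (11), gibberellin (5), heat stress factor (10), clock (8) and sugar transport (8) lists. Within them and without idr1-1 drought replicate 3, 3 abscisic acid, 1 phosphatase, 1 stress factor, 3 reactive oxygen, 2 chlorophyll synthesis, 3 defence, 1 gibberellin, 3 heat stress factor, 3 clock and 3 sugar transport members had an unadjusted p under 0.05. Over all loci tested in that fit, 4291 of 23197 did. The fewer-member lists of NADPH oxidases (1 tested) and sucrose synthesis (2) also had 0 called.

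Larger differences than those of the named genes appeared at loci without a name in the fit without idr1-1 drought replicate 3. These unnamed loci were chosen after their values were seen, as the 2 most positive and 2 most negative of each class with a group mean of at least 10 CPM and as the 3 of highest mean CPM in each direction. Among damped rises, LOC_Os01g22352 was at 0.398, 0.215 and 0.628 CPM in wild type control, 42.1, 25.6 and 52.7 CPM in wild type drought, 2.20, 0.424 and 1.55 CPM in idr1-1 control and 5.69, 8.99 and 28.1 CPM in idr1-1 drought. It climbed from near 0 in both genotypes, less far in idr1-1 replicates 1 and 2, and replicate 3 overlapped wild type drought. The difference was -4.24 (SE 0.74, adjusted p = 0.0255) without replicate 3 and -3.27 (SE 1.06, adjusted p = 0.189) with it. LOC_Os10g30560 was at 4.999, 9.30 and 2.85 CPM in wild type control, 135, 176 and 91.8 CPM in wild type drought, 18.6, 6.42 and 18.01 CPM in idr1-1 control and 13.1, 32.04 and 128 CPM in idr1-1 drought, with replicate 3 near the wild type level and a difference of -3.91 (SE 0.72, adjusted p = 0.0279) without it and -2.54 (SE 1.01, adjusted p = 0.264) with it.

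Damped falls had the same dependence. LOC_Os07g06860 was at 11.2, 12.6 and 12.9 CPM in wild type control, 0.0851, 0.0388 and 0.182 CPM in wild type drought, 12.2, 11.99 and 9.66 CPM in idr1-1 control and 0.841, 0.583 and 0.179 CPM in idr1-1 drought. Wild type lost nearly all of its counts under drought, 7 remaining over 3 libraries, against 33 in idr1-1, where replicate 3 was within the wild type range. The difference was 2.90 (SE 0.47, adjusted p = 0.0221) and 2.47 (SE 0.64, adjusted p = 0.122) without and with that library. LOC_Os04g52260 was at 1196, 951 and 791 CPM in wild type control, 126, 159 and 190.3 CPM in wild type drought, 366, 498 and 361 CPM in idr1-1 control and 449, 231 and 133 CPM in idr1-1 drought. It started lower in idr1-1 and overlapped between treatments there, and the difference was 2.36 (SE 0.37, adjusted p = 0.0189) and 2.04 (SE 0.50, adjusted p = 0.115).

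Enlarged responses included loci that varied widely between replicates. LOC_Os08g39840 was at 9.47, 13.2 and 6.18 CPM in wild type control, 4.85, 6.28 and 0.729 CPM in wild type drought, 122, 29.1 and 77.9 CPM in idr1-1 control and 0.594, 0.389 and 2.69 CPM in idr1-1 drought and LOC_Os05g24780 at 9.56, 10.7 and 1.497 CPM in wild type control, 6.55, 4.34 and 1.73 CPM in wild type drought, 193, 34.0 and 107 CPM in idr1-1 control and 1.19, 1.80 and 2.51 CPM in idr1-1 drought. Both were high in idr1-1 control alone, at levels that differed several-fold between its 3 libraries, and fell there to the range of wild type drought or lower. Differences were -6.02 (SE 1.20, adjusted p = 0.0343) and -5.44 (SE 1.23, adjusted p = 0.048) without idr1-1 drought replicate 3, and -4.65 (SE 1.06, adjusted p = 0.102) and -5.13 (SE 1.08, adjusted p = 0.0837) with it. Enlarged rises had smaller standard errors: LOC_Os01g62490 was at 3.19, 3.01 and 3.86 CPM in wild type control, 18.9, 10.3 and 14.0 CPM in wild type drought, 0.281, 1.33 and 0.5003 CPM in idr1-1 control and 36.8, 29.0 and 19.5 CPM in idr1-1 drought. It was lowest in idr1-1 control and highest in idr1-1 drought, with a difference of 3.46 (SE 0.50, adjusted p = 0.0159) and 3.25 (SE 0.55, adjusted p = 0.0692). LOC_Os03g16610 was at 2.52, 2.67 and 2.12 CPM in wild type control, 15.1, 6.74 and 9.61 CPM in wild type drought, 0.140, 0.637 and 0.550 CPM in idr1-1 control and 22.8, 16.7 and 16.0 CPM in idr1-1 drought, the same order of groups, with 3.39 (SE 0.55, adjusted p = 0.0221) and 3.30 (SE 0.54, adjusted p = 0.0692). In idr1-1 control LOC_Os01g62490 held 41 counts and LOC_Os03g16610 held 26, and both levels again differed several-fold between libraries. The 0.140 CPM of LOC_Os03g16610 lay at the floor of 3 counts.

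Reversed loci of the largest size were CESA4, given above, LOC_Os06g48180, LOC_Os03g01300 and LOC_Os10g25040. LOC_Os06g48180 was at 25.5, 15.2 and 10.5 CPM in wild type control, 1.79, 1.78 and 2.32 CPM in wild type drought, 8.10, 9.18 and 3.85 CPM in idr1-1 control and 8.61, 7.49 and 3.41 CPM in idr1-1 drought, a fall in wild type beside overlapping groups in idr1-1, with a difference of 3.31 (SE 0.52, adjusted p = 0.0198) and 3.00 (SE 0.59, adjusted p = 0.08). With all 12 libraries its fitted idr1-1 response was slightly negative, so that it was damped rather than reversed there. LOC_Os03g01300 was at 6.50, 9.21 and 3.91 CPM in wild type control, 18.04, 51.3 and 5.51 CPM in wild type drought, 51.0, 15.7 and 28.0 CPM in idr1-1 control and 1.88, 5.64 and 12.4 CPM in idr1-1 drought. Its wild type drought libraries spread from the range of wild type control to above that of idr1-1 control, and its difference was -5.02 (SE 1.13, adjusted p = 0.0472) and -4.17 (SE 1.10, adjusted p = 0.126). LOC_Os10g25040 was at 17.43, 21.4 and 16.902 CPM in wild type control, 49.0, 48.3 and 16.7 CPM in wild type drought, 147, 50.2 and 82.5 CPM in idr1-1 control and 8.85, 19.8 and 62.7 CPM in idr1-1 drought, with -3.75 (SE 0.71, adjusted p = 0.0297) and -2.64 (SE 0.88, adjusted p = 0.197), replicate 3 of idr1-1 drought being above every wild type library.

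Of the called loci with the most reads, which also depend on transcript length, 3 had the lower response in idr1-1. LOC_Os07g10840 was at 92.1, 108 and 80.6 CPM in wild type control, 4465, 4101 and 4631 CPM in wild type drought, 133, 93.5 and 129.7 CPM in idr1-1 control and 1095, 1532 and 4689 CPM in idr1-1 drought. The rise was damped in idr1-1 replicates 1 and 2, while replicate 3 was above all wild type libraries, and the difference was -2.10 (SE 0.25, adjusted p = 0.0089) without it and -1.20 (SE 0.60, adjusted p = 0.365) with it. LOC_Os11g02389 was at 284, 279.6 and 227 CPM in wild type control, 3106, 3288 and 3726 CPM in wild type drought, 379, 339 and 363 CPM in idr1-1 control and 2403, 2656 and 3035 CPM in idr1-1 drought, all idr1-1 drought libraries being below wild type and all idr1-1 control libraries above it, with -0.87 (SE 0.17, adjusted p = 0.031) and -0.77 (SE 0.22, adjusted p = 0.141). LOC_Os02g02410 was at 349.9, 444 and 467 CPM in wild type control, 210.4, 217 and 215 CPM in wild type drought, 969, 818 and 761 CPM in idr1-1 control and 261, 220.3 and 291 CPM in idr1-1 drought. It fell in both genotypes, from about 2 times the wild type control level in idr1-1, and had -0.85 (SE 0.19, adjusted p = 0.0494) and -0.75 (SE 0.21, adjusted p = 0.139).

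The abundant loci with a higher response were LOC_Os07g08160, LOC_Os07g43560 and LOC_Os05g22614. LOC_Os07g08160 was at 1488, 1671 and 1591 CPM in wild type control, 1093, 1119 and 1446 CPM in wild type drought, 1405, 1527 and 1363 CPM in idr1-1 control and 1807, 2213 and 348 CPM in idr1-1 drought. Replicate 3 of idr1-1 drought was below every other library and replicates 1 and 2 above every other, so the difference was 0.86 (SE 0.18, adjusted p = 0.043) without replicate 3, 0.40 (SE 0.65, adjusted p = 0.822) with all libraries and -0.034 without replicate 2. LOC_Os07g43560 was at 930.1, 898 and 848 CPM in wild type control, 327, 354 and 338 CPM in wild type drought, 805, 766 and 765 CPM in idr1-1 control and 477, 473 and 389 CPM in idr1-1 drought, a fall in both genotypes that was smaller in all 3 idr1-1 libraries, with 0.67 (SE 0.11, adjusted p = 0.0221) and 0.59 (SE 0.16, adjusted p = 0.135). LOC_Os05g22614 was at 513, 502 and 528 CPM in wild type control, 372, 403 and 473 CPM in wild type drought, 359, 459 and 445 CPM in idr1-1 control and 690.4, 547 and 375 CPM in idr1-1 drought. Its idr1-1 drought libraries 1 and 2 were above wild type control and replicate 3 within wild type drought, with 0.86 (SE 0.18, adjusted p = 0.043) and 0.66 (SE 0.28, adjusted p = 0.282).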

How the data were processed

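Messenger RNA of 12 leaf libraries was sequenced. The authors deposited 1 table of estimated counts per library with 55986 entries, not scaled to depth. Per the submitters' processing notes the tools were HISAT2 2.1.0 and featureCounts 1.6.3; the build, annotation and strand setting they ran with were not given in the sources used here. Fractions made up 13.8% of the nonzero values. Estimated counts were rounded to the nearest integer, and no library total moved by more than 0.00113%. Groups and replicate numbers came from the labels. Total counts of 19100254 to 25109639 put 3 counts at 0.119 to 0.157 CPM, which covers counting error only.

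In R 4.3.3, edgeR 4.0.16 was run with filterByExpr (22833 loci kept), TMM factors and a quasi-likelihood fit with a mean for each group, leaving 8 residual degrees of freedom, at a biological coefficient of variation of 0.17. Contrasts were the drought response of each genotype, the genotype gap in each treatment and the difference of responses, with Benjamini-Hochberg adjustment over all loci tested and a threshold of 0.05. Standard errors come from the log2 fold change and its F statistic. P-values measure the spread between these libraries. Alternatives were DESeq2 1.42.0 (loci without an adjusted p stay out of its counts), limma 3.58.1 with voom and sample quality weights, a replicate block, other scalings and filters, and each library left out. The steps were tested on simulated counts of 12 libraries, with a known difference of responses at 200 loci. The test called 36% of the 2-fold and 78% of the 4-fold differences, and 5.79% of its calls were false. A locus that was not called can thus still differ. No library that stands apart was simulated. Replicates were not duplicates: every pair had a chi-square per locus of at least 8.20.

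Named loci were RGA1, every list member called with all libraries or without idr1-1 drought replicate 3, and, among loci called both ways, the 2 extremes of each class and direction and the 3 of highest CPM in each direction; all 11 loci called both ways are given. Extremes and abundant loci called only without that replicate were added by the same ranking after their values were seen. RGB1, RAB16A, NCED3, BC1 and the other cellulose synthases are given besides, to describe lists. The members and lists were chosen with earlier results of these data known. Of 271 list members 270 were in the files, the gene table (ASM3414082v1) held 217 names on the right chromosome, 1 of them out of order, and 216 were used. None of the locus identifiers is in that table, so a name is an assignment and the identifier is what was measured. Sequences are not used here.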

Additional observations from a re-analysis of the deposited data

Results flagged for a closer look

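For 11 loci the drought response differed between the genotypes by a test of the difference itself with all 12 libraries (edgeR, Benjamini-Hochberg adjusted p under 0.05). The response was lower in idr1-1 by a log2 difference of -2.20 at LOC_Os09g26260, -2.00 at LOC_Os10g39100, -1.97 at LOC_Os03g62200, -1.84 at LOC_Os10g39090, -1.28 at LOC_Os01g71690, -1.17 at LOC_Os09g28650, -0.97 at LOC_Os08g42910 and -0.97 at LOC_Os11g07930. It was higher by 4.67 at LOC_Os02g38780, 1.11 at LOC_Os05g32500 and 1.04 at LOC_Os04g58910. With the replicate number as a block 0 of these 11 were called, and with library size alone 2. Groups of 3 libraries are too small for a test of single outlying samples, and none was made.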

How the results depend on the processing

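Depth limits loci near 3 counts per library, such as LOC_Os02g38780 in idr1-1 and RAB16A in control. With all 12 libraries the counts were 11 loci called, 3 higher and 8 lower in idr1-1, 0 damped, 5 enlarged and 6 reversed, and 0 gene list members. DESeq2 size factors in edgeR, a minimum of 10 counts in every library of a group and the robust fit stayed within 1.5 times of these. Library size alone gave 2 loci called, 1 higher and 1 lower, 1 enlarged and 1 reversed. No filter on low counts (36489 loci tested) gave 82 called, 58 higher, 24 lower, 13 damped, 28 enlarged, 41 reversed and 6 list members. DESeq2's Wald test gave 708 called, 437 higher, 271 lower, 239 damped, 157 enlarged, 312 reversed and 13 list members, and voom with quality weights 371, 204, 167, 125, 77, 169 and 8 in the same order. The cause of these shifts was not tested.

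With 1 library left out in turn the ranges were 0 to 582 loci called, 0 to 490 higher, 0 to 266 lower, 0 to 191 damped, 0 to 114 enlarged, 0 to 303 reversed and 0 to 14 list members. Settings that leave out idr1-1 drought replicate 3 together with a further change were added after seeing the data. In the same order they gave 1242, 642, 600, 456, 310, 476 and 27 with DESeq2, 315, 170, 145, 108, 68, 139 and 10 with voom weights, and 528, 166, 362, 181, 122, 225 and 12 with library size alone, where the median over all loci moved from -0.018 to -0.0964. They gave 902, 443, 459, 222, 264, 416 and 14 with idr1-1 control replicate 2 left out too.

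With the replicate number as a block, edgeR called 0 loci with all 12 libraries (3032 with an unadjusted p under 0.05), 0 higher, 0 lower, 0 enlarged and 0 reversed. With the block and without idr1-1 drought replicate 3 it called 260, 119 higher, 141 lower, 91 damped, 62 enlarged, 107 reversed and 3 list members. The numbers were not taken to pair the samples, since same-numbered libraries of different groups had deviations correlated at -0.316 to 0.221, over 0.1 in 2 of 18 pairs, against 11 of 36 pairs with different numbers.

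All 11 loci called with 12 libraries kept their direction in all 25 other settings. Of the values of single genes and loci, 1 reversed: LOC_Os07g08160 had -0.034 without idr1-1 drought replicate 2, 0.40 with all libraries and at most 0.914 with libraries left out. Of the other values of single genes and loci under the 20 settings chosen first, 810 kept their direction and side of the threshold, 106 passed it and 103 no longer did, and of the added ones 127 and 128 were the same or newly past it. Only the 11 loci called with all 12 libraries had a call to lose, so all 103 lost calls were theirs.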

Other observations

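Some of the loci called without idr1-1 drought replicate 3 were neighbours, the order of the locus identifiers standing for their order on the chromosome. Of the 489, 42 lay in 20 runs with no other tested locus between them, 2 of these runs holding 3 loci and 18 holding 2. Within 14 runs every member had the lower response in idr1-1, within 4 every member had the higher one, and 2 runs were mixed. The run of LOC_Os10g34910, LOC_Os10g34920 and LOC_Os10g34930 had log2 differences of -1.76, -1.54 and -1.69, and that of LOC_Os01g71670, LOC_Os01g71690 and LOC_Os01g71700 had -2.60, -1.39 and -4.85. LOC_Os10g39090 and LOC_Os10g39100 form the 1 run whose members were both called with all 12 libraries as well. How many runs the same number of called loci would form by position alone was not tested, and where neighbours overlap or share reads their values are not independent.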
